A study of Homo sapiens with 49 samples.

Results

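The axon guidance ligands and receptors of 2 human neuroblastoma models were examined by RNA sequencing. Members were taken by symbol: the EPHA and EPHB receptors and their EFNA and EFNB ligands, the SEMA3 to SEMA7 semaphorins, the PLXNA to PLXND plexins, NRP1 and NRP2, SLIT1 to SLIT3, ROBO1 to ROBO4, NTN1, NTN3, NTN4 and NTN5, UNC5A to UNC5D, and DCC. This gave 69 genes of the 23621 listed besides spike-ins. In SHEP-21N cells MYCN is driven by a TET-off transgene that doxycycline (0.2 µg/ml) switches off. There were 2 libraries of these cells before doxycycline (0 h) and 3 for every later time, taken at 2, 4, 6, 8, 16 and 24 h. BE(2)-C cells held a hairpin against TWIST1 that doxycycline (0.5 µg/ml) switches on, with 3 untreated libraries and 3 for every time of 3, 6, 12, 24 and 48 h. All groups grew in tetracycline-free serum. No group given doxycycline without the MYCN switch or the hairpin was analysed here, so that effects of doxycycline cannot be told apart from those of MYCN or TWIST1 loss. One hairpin was used, and the labels do not say whether either line is a single clone.

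Guidance cues are proteins that attract or repel growing axons and moving cells. Ephrins are bound to the membrane and act on Eph receptor tyrosine kinases, with signalling in both directions. Class 3 semaphorins are secreted and bind neuropilins, which pair with plexins to signal; most other semaphorins sit in the membrane and bind plexins directly. Slits act on Robo receptors, and netrins on DCC and the UNC5 receptors. Neuroblastoma arises from the neural crest, whose migrating cells and sympathetic axons use these cues, and neuroblastoma cells occur in an adrenergic, neuron-like state and a mesenchymal, crest-like state.

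The 250 bases before the start of 5 members are printed because the results below turn on these genes: EPHA2 and SEMA7A, which fell, and SEMA3C and NTN4, which rose, in SHEP-21N cells at 24 h, and SEMA4B, which fell in BE(2)-C cells. They lie on build GRCh38.p14 at chr1:16156070-16156319 (minus strand), chr15:74433959-74434208 (minus strand), chr7:80922390-80922639 (minus strand), chr12:95791156-95791405 (minus strand) and chr15:90201080-90201329 (plus strand), and were taken from RefSeq, which held 59 of the 69 members. Each is written 5′ to 3′ in the direction of the gene. Capitals mark the GC box GGGCGG, or its reverse complement CCGCCC.
EPHA2: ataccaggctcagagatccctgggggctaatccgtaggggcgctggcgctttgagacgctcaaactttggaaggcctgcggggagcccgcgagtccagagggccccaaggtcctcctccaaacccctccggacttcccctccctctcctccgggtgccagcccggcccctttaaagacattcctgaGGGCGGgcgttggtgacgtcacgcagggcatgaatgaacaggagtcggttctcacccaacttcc
SEMA7A: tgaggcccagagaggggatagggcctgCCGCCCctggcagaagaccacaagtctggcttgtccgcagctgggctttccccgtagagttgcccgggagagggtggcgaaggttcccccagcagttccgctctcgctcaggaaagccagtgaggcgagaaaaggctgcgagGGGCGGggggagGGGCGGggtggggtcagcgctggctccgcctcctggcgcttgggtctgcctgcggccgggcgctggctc
SEMA3C: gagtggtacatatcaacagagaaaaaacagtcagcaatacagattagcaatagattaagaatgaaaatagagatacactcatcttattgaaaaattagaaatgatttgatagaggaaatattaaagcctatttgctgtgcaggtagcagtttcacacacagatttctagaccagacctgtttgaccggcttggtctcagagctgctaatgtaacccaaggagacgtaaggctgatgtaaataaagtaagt
NTN4: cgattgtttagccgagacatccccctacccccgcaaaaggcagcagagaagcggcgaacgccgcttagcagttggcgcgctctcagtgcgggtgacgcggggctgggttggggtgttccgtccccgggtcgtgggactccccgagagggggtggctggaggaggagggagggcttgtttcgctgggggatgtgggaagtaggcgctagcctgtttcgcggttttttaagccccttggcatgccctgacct
SEMA4B: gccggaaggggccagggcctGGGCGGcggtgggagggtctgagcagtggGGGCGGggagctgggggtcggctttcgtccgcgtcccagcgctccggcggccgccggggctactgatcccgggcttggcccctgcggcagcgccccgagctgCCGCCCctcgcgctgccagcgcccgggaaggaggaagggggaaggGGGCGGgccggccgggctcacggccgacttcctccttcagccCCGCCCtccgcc

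EPHA2 had 1 GC box in this window, SEMA7A 3 and SEMA4B 5, and neither SEMA3C nor NTN4 had one. The SEMA3C window was also poor in G and C, at 36.4% against 64.4% for NTN4, 63.2% for EPHA2, 70.0% for SEMA7A and 79.2% for SEMA4B. Over both strands a GC box occurred in 43 of the 59 members (72.9%) and in 42.3% of all 27305 RefSeq windows of the same length, which include genes of every kind. The E-box CACGTG, the form that MYC proteins are known to bind, occurred in 4 members (6.78%: EPHA8, SEMA3E, SEMA4D and SEMA6D) and in 6.49% of all windows. CATCTG, or CAGATG on the other strand, an E-box form known for TWIST1, occurred in 4 members (6.78%: EPHB4, PLXNA4, SEMA3B and SEMA4A) and in 12.2% of all windows. None of the 5 printed windows held either E-box. A match is a stretch of letters and not a bound site, and a window without one says nothing of the factor.

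The targeted genes were low where the labels say so. MYCN was at 723 and 855 FPKM (fragments corrected for gene length and library size) at 0 h and at 14.1 ± 3.05 (SD, n = 3) at 24 h in SHEP-21N cells, after the authors' rescaling to spike-in RNA added at lysis. TWIST1 was at 81.4 ± 10.7 without doxycycline and 7.81 ± 3.30 at 48 h (SD, n = 3 each) in BE(2)-C cells. On unnormalised FPKM, 12 of 13 mesenchymal and 4 of 13 adrenergic markers reached a mean of 1 in SHEP-21N cells, against 6 of 13 and 13 of 13 in BE(2)-C cells; glial, epithelial, endothelial and blood lists summed to at most 0.326 in the SHEP-21N controls and 13.03 in the BE(2)-C controls. The blood list reached 50.4 unnormalised FPKM in 1 BE(2)-C library, number 1 at 3 h, through its haemoglobin genes, and at most 0.743 in the others; no member was called at 3 h. Rescaled FPKM are used below for changes, and unnormalised FPKM for levels and wherever stated. On the rescaled scale the median tested gene changed by -0.31 (log2) at 24 h in SHEP-21N cells and by -1.36 at 48 h in BE(2)-C cells, and a member's change is to be read against those medians; unnormalised, the medians were -0.04 and 0.02. In bulk RNA, less RNA per cell and fewer cells than counted cannot be told apart. The files give FPKM and not reads, so the depth is unknown. No label says that replicates came from separate cultures, so each p-value measures only the spread between these libraries, which may be technical.

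Before any doxycycline, the most abundant member differed between the models in most families, while NRP1, SLIT3 and ROBO1 led theirs in both. SHEP-21N cells were rich in EPHA2, EFNA1, EFNA4, SEMA3C, SLIT2 and NTN4, and BE(2)-C cells in UNC5B, UNC5A, SEMA6A and EPHA8. Of the 69 members, 37 were at 1 FPKM or more in the SHEP-21N controls and 32 in the BE(2)-C controls, on the unnormalised scale. Control libraries of SHEP-21N cells lay wholly above those of BE(2)-C cells for 31 members and wholly below for 28, and 10 overlapped. The share of all genes so separated was not counted, so these numbers say nothing particular of guidance genes. They include members near 0 in both models, such as EPHA1 (0.0294 against 0) and ROBO4 (0.005 against 0.0389). Genes with a mean of 1 or more over all libraries of a model were tested for change: 38 members in SHEP-21N and 32 in BE(2)-C cells, 22 of them in both, and 21 of the 69 in neither. The members next to this limit were SEMA6C (mean 0.930 FPKM, left out) and ROBO3 (1.26, kept) in SHEP-21N cells, and SEMA3C (0.927, left out) and PLXNC1 (1.23, kept) in BE(2)-C cells. The tables of the 2 models were normalised separately, so levels are set side by side without a test.

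Eph receptors summed to 121 ± 8.04 FPKM (SD, n = 2, as for every SHEP-21N control below) in SHEP-21N controls and 21.5 ± 1.59 (SD, n = 3, as for every BE(2)-C control) in BE(2)-C controls. EPHA2, a receptor for A-type ephrins known for its part in epithelial and tumour cell migration, made up 69.5% of the first sum. It stood at 80.0 and 87.9 FPKM in the SHEP-21N controls and at 1.44 to 1.49 in the BE(2)-C controls. EPHB4, the receptor of EFNB2 in vessel formation, followed at 27.2 ± 2.37 against 0.863 ± 0.177. BE(2)-C cells had instead EPHB2 (6.98 ± 0.412), which acts with B-type ephrins at synapses and in axon tracts, and EPHA8 (5.93 ± 1.13). EPHB2 was at 6.99 ± 0.358 in SHEP-21N cells as well, and its libraries overlapped between the models.

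The leading ephrins differed. The A-type ligands EFNA1 (24.6 ± 0.206 FPKM) and EFNA4 (21.4 ± 1.87) led in SHEP-21N cells and were at 1.28 ± 0.557 and 0.207 ± 0.0740 in BE(2)-C cells. EFNB1, a transmembrane B-type ligand, led in BE(2)-C cells with 32.4 ± 1.92, 63.5% of their ephrin sum, against 11.0 ± 1.41 in SHEP-21N cells. The types did not divide the models: the A-type EFNA5 was at 4.08 ± 0.302 in BE(2)-C and 1.03 ± 0.0400 in SHEP-21N controls, and the B-type EFNB3 at 3.98 ± 0.176 and 6.77 ± 0.367, each with no overlap.

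The secreted class 3 semaphorins summed to 52.1 ± 4.23 FPKM in SHEP-21N cells and 12.7 ± 0.827 in BE(2)-C cells. SEMA3C, which is known to guide neural crest cells into the outflow tract of the heart, was at 22.2 and 17.0 FPKM in the SHEP-21N controls and at 0.437 to 1.05 in the BE(2)-C controls. SEMA3B was at 6.67 ± 0.312 and 0.0363 ± 0.0250. SEMA3F, a ligand of NRP2, was at 15.4 ± 1.24 and 9.26 ± 0.470, and made up 73.5% of the class 3 sum in BE(2)-C cells. Of the membrane semaphorins, SEMA6B (11.6 ± 1.80 against 0.0429 ± 0.0359) and SEMA6A (0.174 ± 0.0384 against 9.46 ± 2.26), both ligands of A-type plexins, stood on opposite sides. SEMA4C, a plexin B ligand, was at 15.4 ± 0.510 in SHEP-21N and 5.96 ± 0.376 in BE(2)-C controls.

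The plexins, receptors of semaphorins, summed to 107 ± 4.59 FPKM in SHEP-21N and 98.7 ± 10.1 in BE(2)-C controls. PLXNB2 led in SHEP-21N cells (54.1 ± 2.27, against 27.2 ± 1.00), and PLXND1, the plexin that binds SEMA3E directly, led in BE(2)-C cells (31.4 ± 2.31, against 14.7 ± 1.33). PLXNA1, a partner of neuropilins, was at 21.0 ± 0.725 in SHEP-21N and 28.2 ± 4.90 in BE(2)-C controls. NRP1, the neuropilin that also binds VEGF, was at 14.7 ± 0.423 and 34.2 ± 7.56, while NRP2 was at 8.45 ± 0.0756 and 1.60 ± 0.296. PLXNA4, which pairs with neuropilins in sensory and sympathetic neurons, was at 0.0868 ± 0.00737 and 2.44 ± 0.812.

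SLIT2 and SLIT3, secreted ligands of Robo receptors, were at 9.44 ± 0.578 and 9.57 ± 0.685 FPKM in SHEP-21N controls. In BE(2)-C controls SLIT3 was at 29.7 ± 4.03 and SLIT2 at 0.0165 ± 0.0113. ROBO1 was the highest Robo in both, at 5.47 ± 0.845 and 14.0 ± 4.71. Among netrins, NTN4, a laminin-binding member found in basement membranes, was at 3.72 ± 0.208 in SHEP-21N controls and listed at 0 in every BE(2)-C control library, and NTN3 was at 0.219 ± 0.0793 and 1.69 ± 0.392. UNC5C, a netrin receptor that mediates repulsion, was high in both models, at 28.1 ± 3.85 and 34.1 ± 11.1, with overlapping libraries. UNC5B, a netrin receptor known to trigger cell death when unbound, was at 0.687 ± 0.0469 in SHEP-21N and 60.7 ± 7.93 in BE(2)-C controls, and UNC5A at 0.155 ± 0.0129 and 8.93 ± 0.246. DCC, the receptor by which netrins attract, was listed at 0 in all 20 SHEP-21N libraries and at a mean of 0.00781 in BE(2)-C controls.

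**Figure D1:**
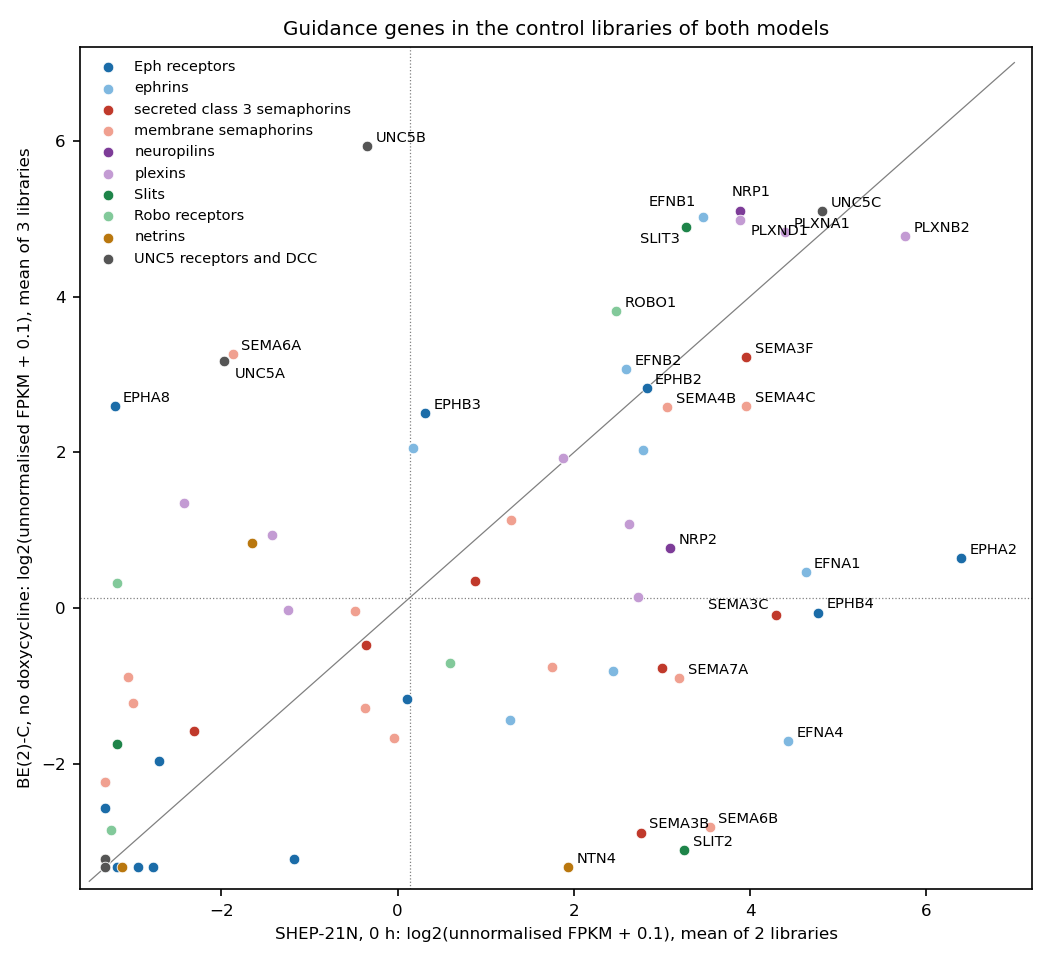
Each point is 1 of the 69 guidance genes, with the mean of the 2 SHEP-21N 0 h libraries on the horizontal axis and of the 3 BE(2)-C libraries without doxycycline on the vertical axis, both as log2(unnormalised FPKM + 0.1); colours give the family, the diagonal marks equal values and dotted lines mark 1 FPKM. EPHA2, EPHB4, EFNA4 and SLIT2 lie far below the diagonal, UNC5B, UNC5A, SEMA6A and EPHA8 far above it, and UNC5C and EPHB2 close to it.

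After doxycycline had switched MYCN off in SHEP-21N cells, secreted semaphorins and both neuropilins rose and EPHA2 and SEMA7A fell. At 24 h, 10 of the 38 tested members rose and 5 fell (adjusted p under 0.05 by limma over 11867 genes). Of all tested genes, 6.16% rose and 32.4% fell, and the members' median log2 change was -0.08 against -0.31 for all genes. The 10 that rose were SEMA3C, NRP1, NTN4, SEMA5A, SEMA3B, NRP2, SEMA3D, SEMA4B, SEMA3A and SLIT3, and the 5 that fell were EPHA2, SEMA7A, EPHB4, EFNA1 and ROBO3. For each of these 15, all 3 libraries at 24 h lay outside the range of the 0 h pair. On unnormalised FPKM the same 15 were called in the same direction and 10 more rose, so that 20 rose and 5 fell, against 28.9% and 36.4% of all genes. All comparisons share the 2 libraries at 0 h. Without the 0 h library numbered 2, 6 of the 15 calls held (SEMA3C, NRP1, NTN4, SEMA5A, EPHA2 and SEMA7A), and without the one numbered 1, 8 held; on unnormalised FPKM, 21 and 23 of the 25 held.

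**Figure D2:**
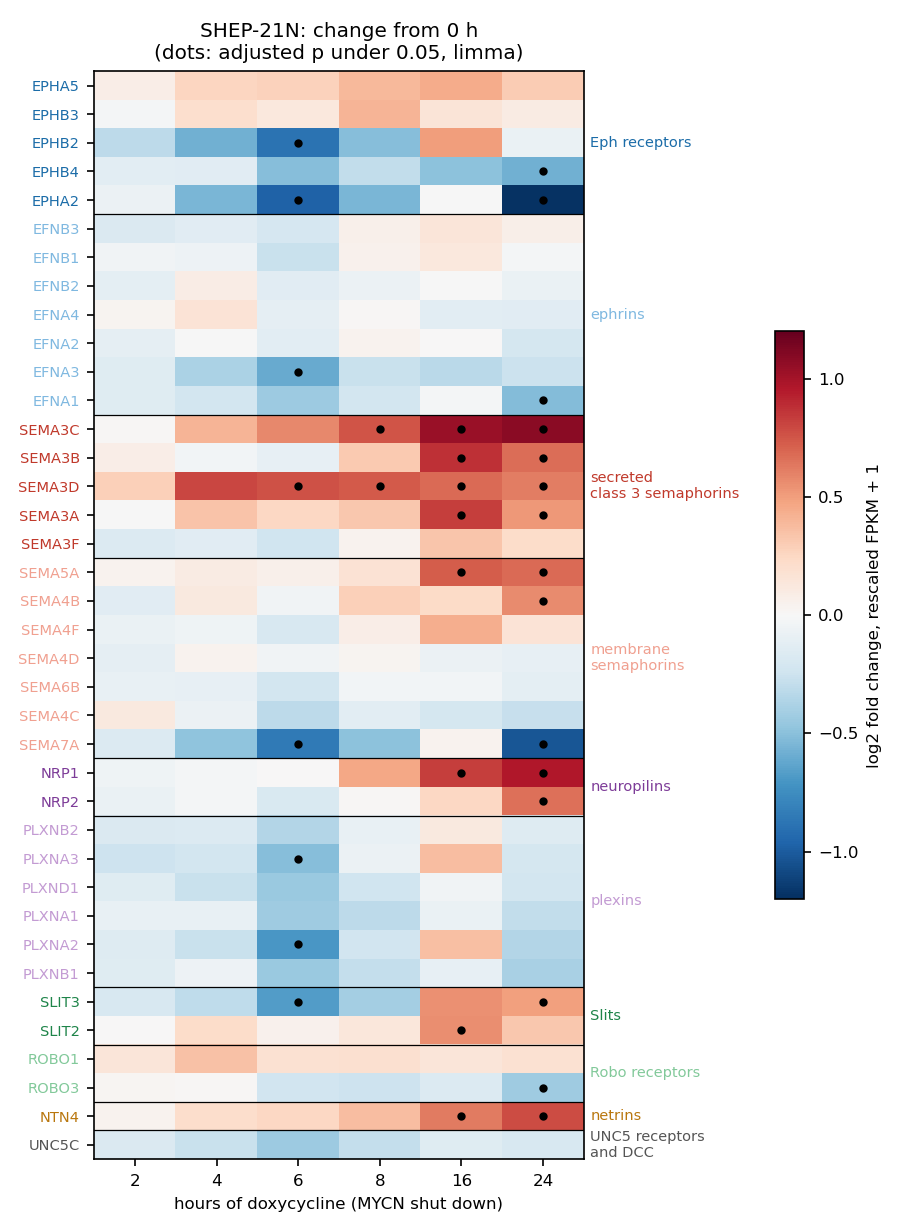
Rows are the 38 tested guidance genes of SHEP-21N cells by family, columns are hours of doxycycline, and colour is the log2 fold change from 0 h of rescaled FPKM + 1; dots mark adjusted p under 0.05. SEMA3A to SEMA3D, NRP1 and NTN4 are red at 16 and 24 h, and EPHA2 and SEMA7A are blue at 6 h and again at 24 h but near 0 at 16 h.

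Of the 5 tested class 3 semaphorins 4 rose at 24 h, where 6.16% of all genes did, and the median change over the 5 was 0.62. SEMA3C was at 22.8 and 19.7 rescaled FPKM at 0 h and at 54.0, 42.9 and 42.3 at 24 h, all above both controls. Its log2 change was 1.08 ± 0.19 (SE; limma adjusted p = 0.000647). It was already higher at 8 h (33.8 to 38.4 FPKM; change 0.75, adjusted p = 0.0245) and at 16 h (37.4 to 49.0; 1.04, adjusted p = 0.00369). SEMA3D, another secreted member, passed at 6 h. It was at 9.45 and 7.94 FPKM at 0 h, at 14.0, 12.7 and 20.6 at 6 h (change 0.76 ± 0.19, limma adjusted p = 0.0220) and at 16.0, 13.3 and 12.4 at 24 h (0.62 ± 0.19, adjusted p = 0.0199). SEMA3B, studied as a candidate tumour suppressor, passed only at 16 and 24 h among the times on this scale. It was at 6.88 and 8.05 at 0 h, 6.03 to 7.70 at 6 h, 11.2 to 17.6 at 16 h (change 0.87, adjusted p = 0.00814) and 10.1 to 14.2 at 24 h (0.67 ± 0.18, adjusted p = 0.00998). SEMA3A, the classic growth cone repellent, was at 2.39 and 1.61 at 0 h, 3.40 to 4.92 at 16 h and 3.18 to 3.40 at 24 h (0.52 ± 0.17, adjusted p = 0.0262). SEMA3F was at 15.1 and 19.0 at 0 h and 16.1 to 22.5 at 24 h, with overlapping libraries (0.22 ± 0.20, adjusted p = 0.386; 0.51 on unnormalised FPKM, adjusted p = 8.13e-05).

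Both neuropilins, the binding subunits for these ligands, rose. NRP1 was at 15.6 and 16.8 FPKM at 0 h, 14.3 to 17.9 at 2 h, 24.7 to 34.3 at 16 h and 38.0, 34.0 and 26.2 at 24 h. The 16 and 24 h libraries all lay above the controls, with changes of 0.83 ± 0.18 (limma adjusted p = 0.00901) and 0.96 ± 0.18 (adjusted p = 0.000923). NRP2 was at 8.87 and 9.91 at 0 h and at 18.5, 16.0 and 12.3 at 24 h (0.66 ± 0.18, adjusted p = 0.0104). The 6 tested plexins, the signalling subunits, did not pass the test at 24 h on either scale, with PLXNB1 alone under an unadjusted p of 0.05 on the rescaled one (-0.39, adjusted p = 0.0766 by limma). Their median change was -0.26, and the most abundant one, PLXNB2, was at 53.5 and 64.5 at 0 h and 43.0 to 62.3 at 24 h (-0.16, adjusted p = 0.568). At 6 h PLXNA2 and PLXNA3 had fallen, with changes of -0.70 and -0.51 (limma adjusted p = 0.0190 and 0.0414), where 7.54% of all genes fell. On unnormalised FPKM all 6 plexins fell at that time, where 29.8% of all genes did.

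The membrane semaphorins split. SEMA7A, a GPI-anchored member that signals through integrins and PLXNC1, was at 9.53 and 10.7 FPKM at 0 h, 5.02 to 5.33 at 6 h, 8.63 to 11.9 at 16 h and 5.63, 4.07 and 3.81 at 24 h. The 6 and 24 h libraries lay below both controls and those at 16 h overlapped them. The changes were -0.85 ± 0.17 at 6 h (limma adjusted p = 0.00683) and -1.03 ± 0.17 at 24 h (adjusted p = 0.000423). SEMA5A and SEMA4B rose at 24 h. SEMA5A, which can attract or repel axons, was at 1.16 and 0.963 at 0 h and 2.58, 2.30 and 2.06 at 24 h (0.68 ± 0.13, adjusted p = 0.00109). SEMA4B was at 8.31 and 10.1 and then 16.8, 14.7 and 11.2 (0.57 ± 0.19, adjusted p = 0.0264). The other 4 tested members (SEMA4C, SEMA4D, SEMA4F and SEMA6B) had changes between -0.28 and 0.17 and did not pass; on unnormalised FPKM SEMA4F rose (0.45, adjusted p = 0.0001 by limma).

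Of the 5 tested Eph receptors 2 fell at 24 h, where 32.4% of all genes did. On unnormalised FPKM EPHA5, EPHB2 and EPHB3 rose too, where 28.9% of all genes did. EPHA2 was at 81.3 and 102 FPKM at 0 h, 79.4 to 100.3 at 2 h, 49.7 to 76.1 at 4 h, 40.4 to 49.1 at 6 h, 73.3 to 111 at 16 h and 45.5, 40.6 and 33.0 at 24 h. All libraries at 4, 6, 8 and 24 h lay below both controls, while those at 16 h overlapped them. The change was -0.97 ± 0.21 at 6 h (limma adjusted p = 0.0124), -0.00 at 16 h, which did not pass, and -1.19 ± 0.21 at 24 h (adjusted p = 0.000782). EPHB4 was at 26.3 and 33.5 at 0 h and 22.8, 20.2 and 16.4 at 24 h (-0.57 ± 0.22, adjusted p = 0.0433), a call lost when any of 10 single libraries was left out. EPHB2 fell at 6 h, from 7.21 and 8.44 to 4.26, 3.77 and 3.31 (-0.89 ± 0.17, adjusted p = 0.00633), and was at 6.38 to 8.30 at 24 h. Of the 7 tested ephrins 1 fell at 24 h, EFNA1, a ligand of EPHA2, and on unnormalised FPKM EFNB1, EFNB2 and EFNB3 rose too. It went from 25.6 and 28.5 to 22.2, 18.4 and 15.4 (-0.52 ± 0.20, adjusted p = 0.0455), also lost without any of 10 single libraries. EFNA3 had fallen at 6 h (-0.60 ± 0.18, adjusted p = 0.0426) and was at -0.25 at 24 h. EFNA4, the next most abundant ephrin after EFNA1, was at -0.13 at 24 h, and EFNB1, EFNB2 and EFNB3 were between -0.08 and 0.07.

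Of the midline cues, NTN4 was at 4.20 FPKM in both 0 h libraries, 6.01 to 7.57 at 16 h and 9.27, 7.79 and 6.96 at 24 h, all above the controls. It rose by 0.62 at 16 h and 0.78 ± 0.13 at 24 h on the log2 scale (limma adjusted p = 0.00896 and 0.000527). SLIT3 was first lower and then higher: its 0 h libraries were at 9.59 and 11.7, those at 6 h at 6.78, 6.48 and 5.65 (-0.67 ± 0.19, adjusted p = 0.0336) and those at 24 h at 18.3, 15.9 and 12.4 (0.49 ± 0.19, adjusted p = 0.0483). The 24 h call was lost when any of 14 single libraries was left out, and was also made on unnormalised FPKM (0.78). SLIT2 was at 10.3 and 10.5 at 0 h, 13.6 to 17.6 at 16 h (0.56, adjusted p = 0.0281) and 11.7 to 15.1 at 24 h (0.32, adjusted p = 0.0898; 0.61 on unnormalised FPKM, adjusted p = 1.97e-05). Of their receptors, ROBO1 was at 6.50 and 5.71 at 0 h and 6.51 to 7.93 at 24 h (0.18, adjusted p = 0.264; 0.47 on unnormalised FPKM, adjusted p = 0.00169). ROBO3, a Robo that in mammals does not bind Slits, fell from 1.59 and 1.74 to 1.18, 0.911 and 0.881 (-0.42 ± 0.14, adjusted p = 0.0226). UNC5C, the main netrin receptor here, was at 31.7 and 29.4 and then 23.1 to 30.7 (-0.19, adjusted p = 0.321).

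**Figure D3:**
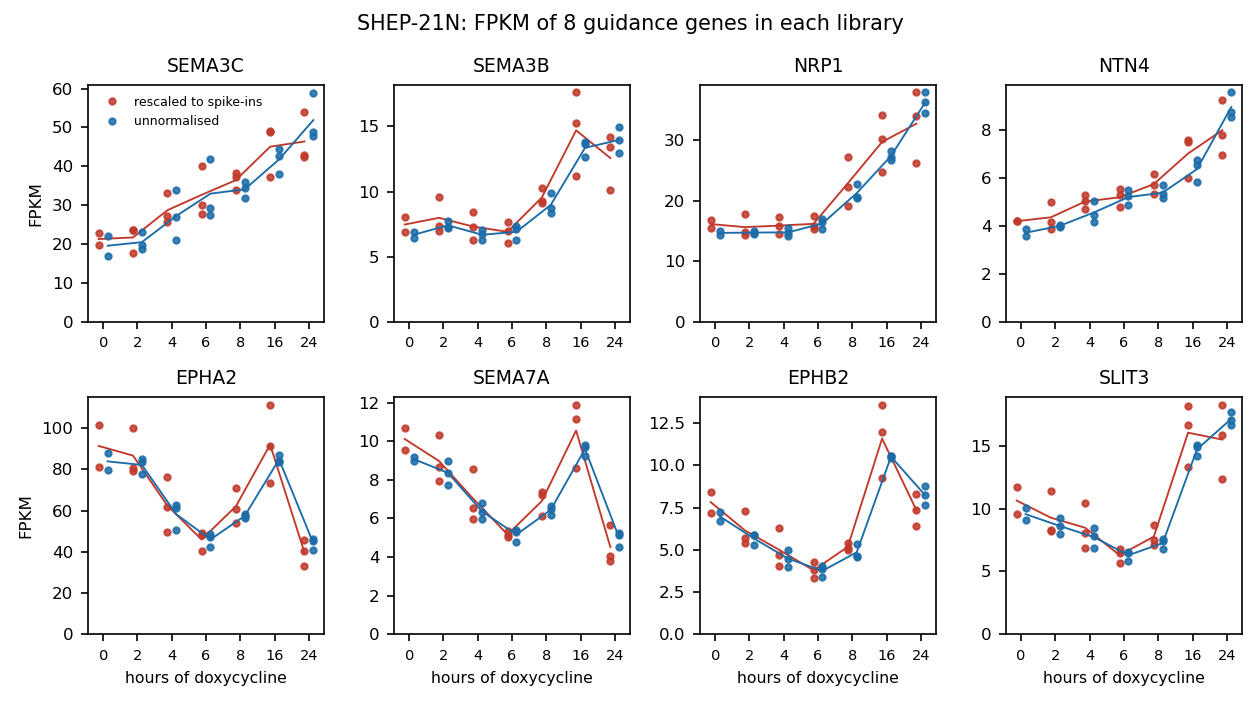
FPKM of 8 guidance genes in every SHEP-21N library (points; lines join the means of each time) against hours of doxycycline, rescaled to spike-ins in red and unnormalised in blue, with axes starting at 0 and times spaced evenly. SEMA3C, SEMA3B, NRP1 and NTN4 end above their 0 h libraries, EPHA2 and SEMA7A dip at 6 h and 24 h with 16 h libraries back at the 0 h level, and EPHB2 and SLIT3 are low at 6 h and high at 16 h.

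The calls came at different times. Over all times, 17 of the 38 members passed an F-test for any change, against 31% of all genes. At 2 h no member passed, nor any at an unadjusted p under 0.05, and of all genes 0% were higher and 0.0506% lower; unnormalised, no member passed against 0.236% and 0.345%. At 4 h no member passed (6 at an unadjusted p under 0.05), against 0.00843% higher and 0.0758% lower, while unnormalised 4 rose and 6 fell, against 15.8% and 18.1%. At 6 h SEMA3D rose and 7 members fell (EPHA2, EPHB2, SEMA7A, PLXNA2, SLIT3, EFNA3 and PLXNA3), against 3.17% and 7.54%; unnormalised 5 rose and 15 fell, against 26.8% and 29.8%. At 8 h SEMA3C and SEMA3D rose and none fell (4 lower at an unadjusted p under 0.05), against 3.92% and 3.83%; unnormalised 8 rose and 9 fell, against 25% and 29.2%. At 16 h 8 rose (SEMA3C, SEMA3B, SEMA3A, NRP1, SEMA5A, SEMA3D, NTN4 and SLIT2) and none fell (1 lower at an unadjusted p under 0.05), against 5.13% and 3.04%; unnormalised 17 rose and 3 fell, against 23.8% and 27.5%. In 5 of the 38 members (EPHB2, NRP2, PLXNA2, PLXNA3 and SLIT3) all libraries lay below the 0 h pair at one time and above it at another, against 6.18% of all genes; in BE(2)-C cells this held for none of 32 members, against 0.953%. None of the rescaled calls at 6, 8 and 16 h held without the 0 h library numbered 2, and 3, 0 and 3 held without the one numbered 1, although all were also made on unnormalised FPKM. Per the labels, the libraries at 8, 16 and 24 h carry index sequences also used at 0, 2 and 4 h. Whether this reuse reflects separate sequencing pools was not tested, nor was any part of it in these steps. From 0 to 24 h the summed mesenchymal markers went from 1391 and 1475 unnormalised FPKM to between 2168 and 2298, and the adrenergic ones, 2 of 13 of which were at 0 throughout, from 67.6 and 72.5 to between 48.4 and 50.8. These sums weigh abundant genes most and do not show a shift of a whole list. LGALS1 had a mean of 507 at 0 h and reached 1407 in its highest library. VIM had a mean of 489 at 0 h and at most 516, and FOSL1 a mean of 119 and a lowest value of 28.8. The part of either marker list in the members' changes was not tested.

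Genes further along the pathways moved in both directions. Of 13 tested co-receptors and other cues (30 listed), 3 rose and 1 fell at 24 h, against 6.16% and 32.4% of all genes, with a median change of 0.11. ITGB1, the integrin subunit through which SEMA7A can act, went from 103 to 193 FPKM (0.89 ± 0.19, adjusted p = 0.00253 by limma). MET, a kinase that plexin B receptors associate with, went from 21.4 to 36.7 (0.75 ± 0.19, adjusted p = 0.00579), and BOC, a hedgehog co-receptor that also binds netrin, from 7.13 to 10.6 (0.51 ± 0.19, adjusted p = 0.0447). RGMB, a neogenin ligand, went from 11.8 to 6.35 (-0.81 ± 0.19, adjusted p = 0.00416). Of 46 tested cytoplasmic effectors (59 listed), 5 rose and 10 fell, against the same shares of all genes, with a median of -0.19. The largest rises were ROCK2 (0.75), ADAM10 (0.72), ARHGEF12 (0.60) and ROCK1 (0.56). ROCK1 and ROCK2 are kinases that drive actomyosin contraction, ADAM10 a protease that cleaves ephrins, and ARHGEF12 an exchange factor bound by plexin B. The largest falls were EVL (-1.05), an actin elongation factor, MICAL2 (-0.99), an actin oxidase, DPYSL3 (-0.94), a collapsin response mediator, and CDK5R1 (-0.86), the activator of CDK5. On unnormalised FPKM the effectors were 21 higher and 14 lower, and the cues 9 higher and 1 lower, against 28.9% and 36.4% of all genes.

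After the TWIST1 hairpin was switched on in BE(2)-C cells, SEMA4B fell from 6 h on unnormalised FPKM, and at 48 h most members fell on the spike-in scale, as did most genes. At 48 h, 29 of the 32 tested members fell and none rose, with none higher at an unadjusted p under 0.05 (limma). Of all 11433 tested genes, 93.3% fell and 0.131% rose, and the members' median change was -1.26 against -1.36. The 3 members that did not pass were SEMA3A, PLXNC1 and ROBO2. A fall at 48 h on this scale was thus shared with nearly all genes, and unnormalised FPKM show how members stood relative to other genes. There 6 members rose and 8 fell, against 18.1% and 21.3% of all genes. The 6 were ROBO2, NRP1, SEMA3A, PLXNC1, EFNB2 and SLIT3, and the 8 were SEMA4B, SEMA3F, PLXND1, EPHB2, EFNB3, PLXNB3, EPHA8 and EFNA5. Leaving out the control library numbered 1 kept 13 of these 14 calls (EPHA8 was lost), and leaving out either other control kept all 14. Members gained were EPHB3, PLXNA2, PLXNA3, PLXNB2 and SEMA6A without number 1, EFNB1, ROBO1 and UNC5B without number 2, and these 3 and SEMA4C without number 0. Over all times, 28 of the 32 members passed an F-test on the rescaled scale, against 96% of all genes.

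**Figure D4:**
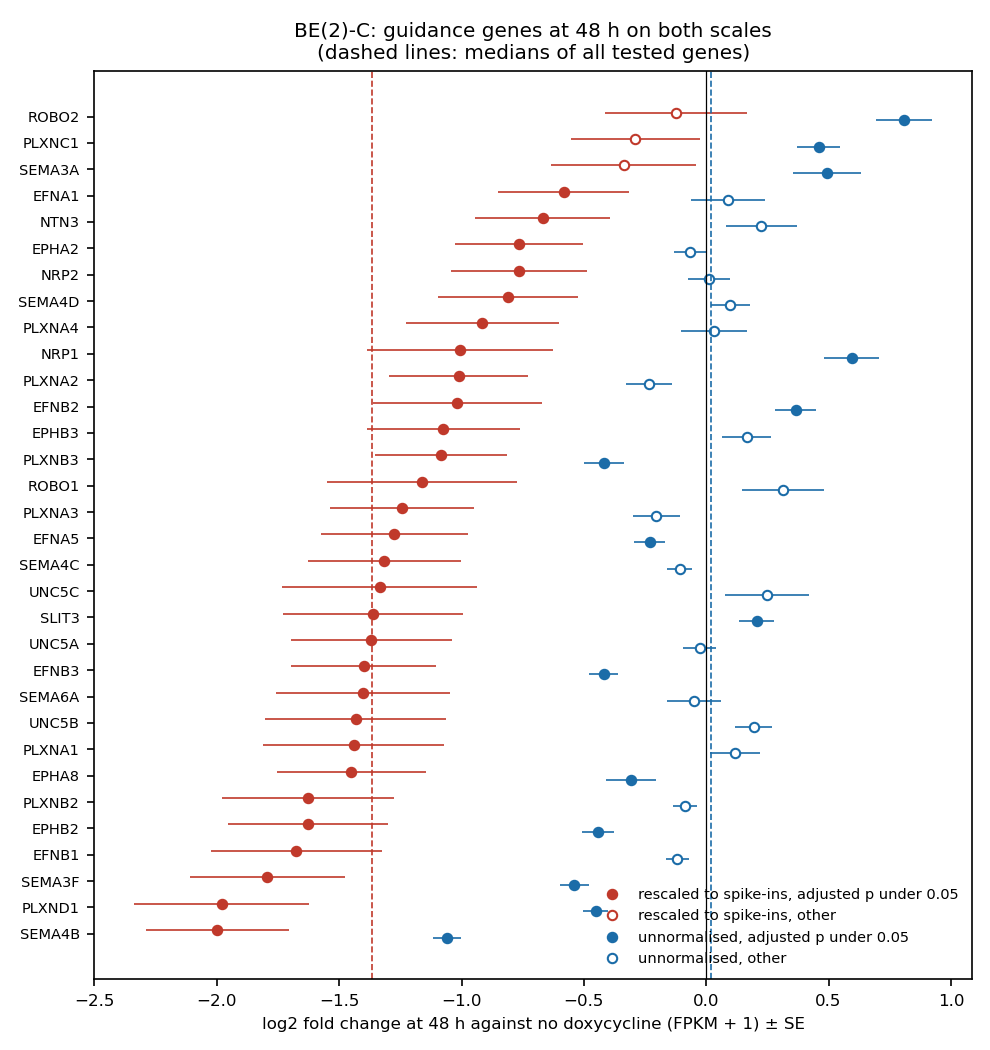
Log2 fold change (horizontal axis, FPKM + 1, bars are SE) of the 32 tested guidance genes of BE(2)-C cells at 48 h against no doxycycline, on FPKM rescaled to spike-ins in red and unnormalised in blue; filled points passed adjusted p under 0.05 and dashed lines are the medians of all tested genes. On the rescaled scale the members spread around -1.36, and SEMA4B lies lowest on both scales while ROBO2 lies highest on both.

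SEMA4B was the one member called before 48 h on the rescaled scale. Its unnormalised FPKM were 5.45 to 6.26 without doxycycline, 4.72 to 5.11 at 3 h, 3.63 to 3.80 at 6 h, 3.03 to 3.09 at 12 h, 2.23 to 2.52 at 24 h and 2.16 to 2.42 at 48 h. The libraries of every time lay below all 3 controls on this scale, while rescaled ones at 3, 6 and 12 h overlapped them. The unnormalised changes were -0.55 at 6 h, -0.77 at 12 h, -1.01 at 24 h and -1.06 at 48 h (limma adjusted p = 9.62e-05, 8.19e-07, 8.42e-09 and 2.78e-09). On the rescaled scale SEMA4B went from 5.82, 8.00 and 8.36 to 2.37, 2.61 and 2.74 at 24 h (-1.22 ± 0.29, adjusted p = 0.0398) and to 0.982, 1.62 and 0.732 at 48 h (-2.00, adjusted p = 5.17e-06). The 24 h call was lost when any of 9 single libraries was left out, with a highest adjusted p of 0.281 without the control numbered 0.

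At 3, 6 and 12 h no member passed on the rescaled scale (1, 0 and 0 at an unadjusted p under 0.05), against 0.0175% of all genes higher and 0.0175% lower at 3 and at 6 h, and 0.0175% and 0.0262% at 12 h. At 24 h SEMA4B alone fell and none rose (none at an unadjusted p under 0.05), against 0.586% and 0.0175%. Unnormalised, no member passed at 3 h (4 at an unadjusted p under 0.05), against 0% higher and 0.0175% lower, and at 6 h SEMA4B alone fell, against 0.00875% and 0.472%. At 12 h SEMA4B and EFNA5 fell, against 0.752% higher and 3.33% lower. At 24 h ROBO2, NRP1 and PLXNC1 rose, and SEMA4B, EFNB3, PLXNB3, PLXND1, SEMA3F and EPHB2 fell, against 9.55% and 13.6%. These 9 were all called in the same direction at 48 h.

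The semaphorin receptors of these cells split at 48 h. PLXND1 was at 27.1, 44.6 and 50.0 rescaled FPKM without doxycycline and at 8.95, 14.1 and 6.08 at 48 h (-1.98 ± 0.36, limma adjusted p = 4.87e-05). On the unnormalised scale it was at 29.0 to 33.6 and 22.1 to 23.4, again with no overlap (-0.45, adjusted p = 5.67e-06). PLXNB3, also a plexin, was at 1.71 to 1.93 and then 0.924 to 1.39 unnormalised (-0.42, adjusted p = 0.000846). PLXNB2 and PLXNA1, the other abundant plexins, had rescaled changes of -1.63 and -1.44 and unnormalised ones of -0.09 and 0.12 that did not pass; without the control numbered 1, PLXNB2 passed at -0.12 (adjusted p = 0.0423). NRP1 differed in sign between the scales. Its unnormalised FPKM were 25.5, 39.1 and 37.9 without doxycycline and 50.6, 49.7 and 53.6 at 48 h (0.60, adjusted p = 0.000674). Its rescaled FPKM were 23.9, 51.8 and 60.3 and then 20.2, 30.8 and 13.7 (-1.01 ± 0.38, adjusted p = 0.0149). Without the control library numbered 1, in which NRP1 was lowest, the unnormalised change was 0.40 (adjusted p = 9.51e-06). PLXNC1, the receptor of SEMA7A, was at 0.672 to 1.07 and then 1.45 to 1.70 unnormalised (0.46, adjusted p = 0.000715), with no call on the rescaled scale (-0.29, adjusted p = 0.282).

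Of their class 3 ligands, SEMA3F fell on both scales. It was at 8.83 to 9.76 unnormalised FPKM in the controls, 7.37 to 7.83 at 24 h and 5.95 to 6.19 at 48 h (-0.54, limma adjusted p = 3.78e-06), and on the rescaled scale changed by -1.79 ± 0.32 (adjusted p = 3.90e-05). SEMA3A was at 0.615, 1.496 and 1.41 unnormalised and then 1.98, 2.30 and 1.75 (0.49, adjusted p = 0.0112; 0.29 without the control numbered 1, adjusted p = 0.0239), against -0.34 on the rescaled scale (adjusted p = 0.269). SEMA6A, the most abundant membrane semaphorin, was at 6.38, 14.2 and 17.1 and then 3.77, 5.75 and 2.43 rescaled (-1.40 ± 0.36, adjusted p = 0.000810) and did not pass unnormalised (-0.05). Without the control numbered 1 its unnormalised change was -0.24 (adjusted p = 0.000324).

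Of the 9 tested Eph receptors and ephrins, EFNB2 rose and EPHB2, EPHA8, EFNB3 and EFNA5 fell on unnormalised FPKM at 48 h. Of all genes 18.1% rose and 21.3% fell. EPHB2, the highest Eph receptor of these cells, was at 6.51 to 7.23 unnormalised FPKM in the controls and 4.62 to 5.01 at 48 h, with no overlap (-0.44, limma adjusted p = 8.40e-05; -1.63 rescaled). EPHA8 was at 4.89 to 7.13 and then 4.14 to 4.88 (-0.31, adjusted p = 0.0271; -1.45 rescaled). Of the ligands, EFNB3 was at 3.81 to 4.16 and then 2.67 to 2.76 (-0.42, adjusted p = 5.65e-05; -1.40 rescaled). EFNB1, the most abundant ephrin, was at 31.0 to 34.6 and then 28.8 to 30.5 unnormalised (-0.12, adjusted p = 0.0571), and at -1.68 ± 0.35 on the rescaled scale (adjusted p = 0.000161). EFNB2, the ligand of EPHB4, was at 6.66, 8.81 and 9.38 and then 11.4, 10.6 and 10.6 unnormalised (0.37, adjusted p = 0.00301; 0.23 without the control numbered 1), while its rescaled change was -1.02 ± 0.35 (adjusted p = 0.00763).

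Of the 7 tested Slit, Robo, netrin and UNC5 members, ROBO2 and SLIT3 rose on unnormalised FPKM at 48 h and the other 5 did not pass. Of all genes 18.1% rose and 21.3% fell. ROBO2, a Slit receptor of neurons, was at 0.681, 1.34 and 1.44 unnormalised FPKM in the controls, 2.00 to 2.17 at 24 h and 2.56, 3.02 and 2.62 at 48 h. Its libraries at 24 and 48 h lay above all controls, with changes of 0.53 and 0.81 (limma adjusted p = 0.00309 and 5.03e-05), and 0.64 at 48 h without the control library numbered 1. On the rescaled scale ROBO2 was at 0.760 to 2.22 and then 0.820 to 2.11, and did not pass (-0.12, adjusted p = 0.679). ROBO1 was at 8.54, 16.6 and 16.8 and then 16.3 to 17.6 unnormalised (0.31, adjusted p = 0.150), a change of 0.02 without that control. SLIT3, the main Slit, was at 25.1, 31.9 and 32.1 and then 33.8 to 35.0 unnormalised (0.21, adjusted p = 0.0326), and its change was 0.09 without that control (adjusted p = 0.0445). On the rescaled scale SLIT3 changed by -1.36 ± 0.37 (adjusted p = 0.00133). UNC5B was at 51.5, 65.6 and 64.9 and then 66.7 to 70.6 unnormalised (0.19, adjusted p = 0.0553), with -1.43 ± 0.37 rescaled (adjusted p = 0.000962). Its unnormalised change was 0.082 without the control numbered 1 (adjusted p = 0.162), and passed at 0.25 without either other control (adjusted p = 0.0200 and 0.0276). The control library numbered 1 held the lowest unnormalised value of EFNB2, NRP1, ROBO1, ROBO2, SEMA3A, SEMA6A, SLIT3 and UNC5B among the 3 controls. The adrenergic marker sum ran from 3075 to 4044 over the controls and from 3318 to 3423 at 48 h, the mesenchymal one from 807.8 to 1393 and from 633 to 644, and their part in these changes was not tested. CHGA (mean 1906 unnormalised FPKM in the controls) weighs most in the adrenergic sum and LGALS1 (722) in the mesenchymal one. The mesenchymal list also holds TWIST1, the hairpin's target, with unnormalised means of 64.9 in the controls and 18.1 at 48 h. The mesenchymal sum of 1393 was that of the control numbered 1, and the next highest in any library was 899.6.

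**Figure D5:**
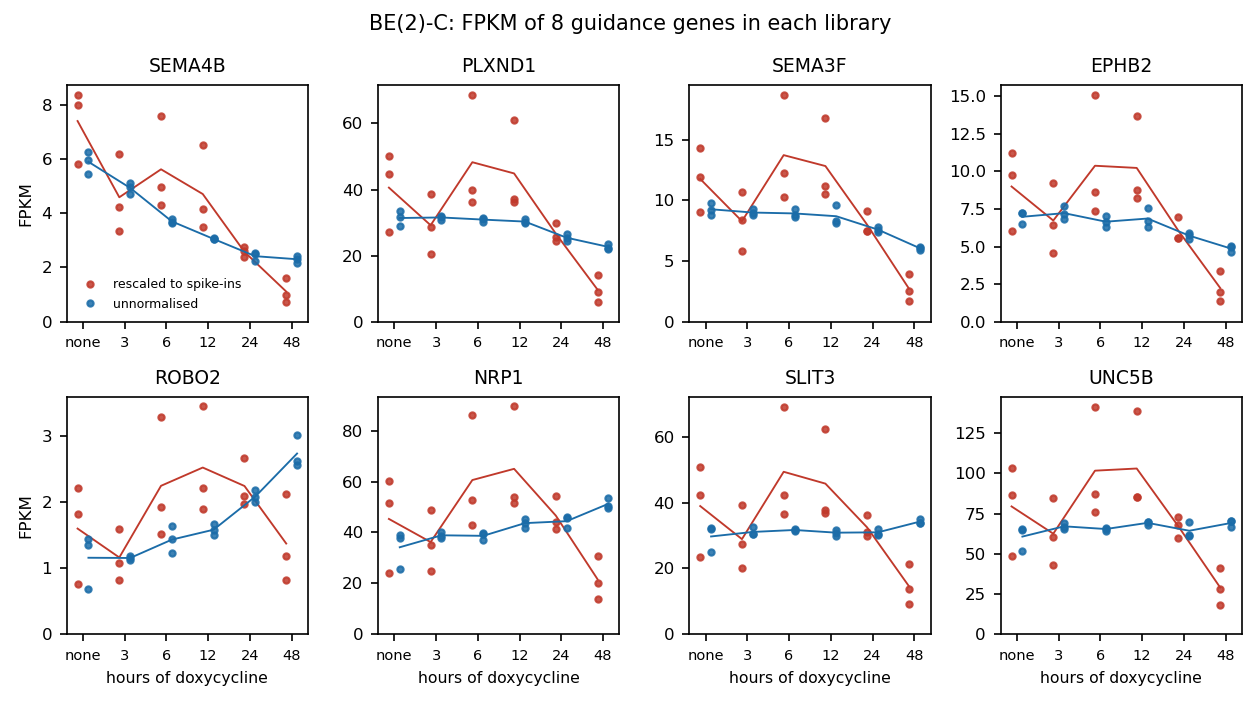
FPKM of 8 guidance genes in every BE(2)-C library (points; lines join the means of each time) without doxycycline and at 3 to 48 h, rescaled to spike-ins in red and unnormalised in blue, with axes starting at 0 and times spaced evenly. Unnormalised SEMA4B declines at each time while ROBO2 and NRP1 are highest at 48 h, UNC5B lies between 51.5 and 70.6 in all libraries, and at 6 and 12 h the rescaled points of a time spread more widely than the unnormalised ones.

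All 49 tested cytoplasmic effectors fell on the rescaled scale in BE(2)-C cells at 48 h (median -1.59), against 93.3% of all genes, and on unnormalised FPKM 21 fell, against 21.3% (median -0.16; all genes 0.02). The largest rescaled falls were RAC1 (-2.53), a small GTPase that drives lamellipodia, VAV2 (-2.43), an exchange factor recruited by Eph receptors, CDC42 (-2.32), the GTPase of filopodia, and LIMK1 (-2.30), the kinase that inactivates cofilin. The unnormalised change of RAC1 was -0.88 and that of LIMK1 -1.10 (limma adjusted p = 5.78e-08 and 3.72e-10). Of 14 tested cues and co-receptors 12 fell rescaled (median -1.44), against 93.3% of all genes, and 2 rose and 6 fell unnormalised, against 18.1% and 21.3%. The 2 were FLRT3 (1.30), an adhesion protein that binds UNC5 and Robo receptors, and CNTN1 (0.93), a neural adhesion protein.

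For members tested in both models, the values at the latest time are set side by side only, since times, doses and targets differ. On unnormalised FPKM, NRP1 changed by 1.25 in SHEP-21N cells at 24 h and by 0.60 in BE(2)-C cells at 48 h. SLIT3 changed by 0.78 and 0.21, SEMA3A by 0.80 and 0.49, and EFNB2 by 0.20 and 0.37. These 4 were the members that rose in both. Of all tested genes 28.9% rose in SHEP-21N and 18.1% in BE(2)-C cells, and the share that rose in both was not counted. All 4 changes in BE(2)-C cells were smaller without the control numbered 1, as given above. SEMA4B changed by 0.86 and -1.06 and SEMA3F by 0.51 and -0.54, rising in SHEP-21N and falling in BE(2)-C cells, as did EFNB3 (0.36 and -0.42) and EPHB2 (0.21 and -0.44). Of these, SEMA4B alone was also called higher at 24 h in SHEP-21N cells on the rescaled scale. The EPHB2 rise was 0.16 without the 0 h library numbered 1, and its call was lost without either 0 h library. The share of all genes that rose in one model and fell in the other was not counted. EPHA2 changed by -0.91 in SHEP-21N cells and was at -0.06 in BE(2)-C cells, where it did not pass.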

How the data were processed

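RNA sequencing libraries of SHEP-21N (20) and BE(2)-C (18) cells were used. Per the labels' protocols, cell numbers were determined first, ERCC spike-ins went in at lysis, and polyadenylated RNA was made into stranded libraries. The submitters' processing notes name HISAT, Cufflinks 2.0.0 and hg19. The authors deposited FPKM per gene as an unnormalised and a spike-in rescaled table for each experiment; no source used here describes the rescaling. Entries at 0 in the unnormalised tables stand at 0.0706 to 0.127 (SHEP-21N) and 0.0377 to 0.201 (BE(2)-C) in the rescaled ones. Of 49 listed samples, 11 (BE(2)-C with DMSO or JQ1) were not analysed here. Each column was assigned to its group by name, and its number serves to tell libraries apart.

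Tests covered genes with a mean unnormalised FPKM of at least 1, without spike-ins: 11867 and 11433. A model with 1 mean per time over all libraries of an experiment was fitted to log2(FPKM + 1) with limma 3.58.1 (moderated, with trend) in R 4.3.3. Adjusted p is Benjamini-Hochberg over all tested genes. Fold changes on this scale understate those of low genes. Levels, promoters and figures were made in Python 3.11.15 using numpy 2.4.6, pandas 2.3.3 and matplotlib 3.10.9. The script was tested on simulated data with log2 changes of 0.5, 1 and 2 added at the latest time, on the rescaled scale. It recovered 10.4%, 77.6% and 97% of these for SHEP-21N and 0%, 13.4% and 90.9% for BE(2)-C cells. Each change was added to 66 or 67 genes, with noise independent between genes. In the data far more genes changed, and 93.3% fell in BE(2)-C cells at 48 h. The recovered shares hold for the simulated setting and do not give the power of the tests on the data. A rescaled change that did not pass is not shown to be absent.

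The members, gene lists, markers and the naming rule were chosen with earlier results of these data known. Named are the targeted gene, up to 12 rises and 12 falls at the latest time and 3 of each at earlier times, the 10 highest members in each model's controls, the 5 largest and 5 smallest ratios between the models, each family's highest member, and up to 4 rises and 4 falls of the effector list; other members, and the cues and co-receptors, are named where a count or another scaling needed them, after their values were seen. Alternatives were unnormalised FPKM, centring on library medians, a pseudocount of 0.1, no filter, a replicate block, a fit of only the groups compared, and leaving out each library; the contrasts between times and the unnormalised fits without a control library were added after seeing the data.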

Additional observations from a re-analysis of the deposited data

Results flagged for a closer look

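In SHEP-21N cells, 5 of the 38 tested members (13.2%; 6.18% of all tested genes) had all libraries below both 0 h libraries at one time and all above them at another; in BE(2)-C cells no member did, against 0.953% of all genes. In EPHB2 the change from 0 h was -0.89 at 6 h (adjusted p = 0.00633) and 0.50 at 16 h (0.0767), and the difference of 16 h minus 6 h was 1.39 ± 0.15 (SE; limma adjusted p = 2.13e-05). For SLIT3 the changes were -0.67 at 6 h and 0.55 at 16 h, and the difference was 1.22 ± 0.17 (adjusted p = 0.000172). Its 16 h change from 0 h did not pass (limma adjusted p = 0.07945). PLXNA2 had changes of -0.70 and 0.36 at these times and a difference of 1.06 ± 0.15 (adjusted p = 0.000239). PLXNA3, likewise, had changes of -0.51 and 0.37 and a difference of 0.88 ± 0.14 (adjusted p = 0.000382). The 16 h changes of PLXNA2 and PLXNA3 from 0 h did not pass (limma adjusted p = 0.195 and 0.129). NRP2 changed by 0.66 at 24 h and stood at -0.18 at 6 h, which did not pass, and its difference of 24 h minus 6 h was 0.84 ± 0.16 (adjusted p = 0.00874). These contrasts were added after the non-overlapping libraries had been seen and take the pair of times so found. On unnormalised FPKM the differences of EPHB2, SLIT3, PLXNA2, PLXNA3 and NRP2 were 1.28, 1.11, 0.96, 0.77 and 0.99. Leaving out 1 library gave 0.715 to 0.993 for NRP2, whose call was lost once, and kept the calls of the other 4.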

How the results depend on the processing

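With unnormalised FPKM the numbers of SHEP-21N members called were 10 at 4 h, 20 at 6 h, 17 at 8 h, 20 at 16 h, 25 at 24 h and 35 at any time, against 0, 8, 2, 8, 15 and 17 as reported; centring on library medians gave 9, 21, 14, 20, 24 (20 higher, 4 lower) and 35. For BE(2)-C they were 1 at 6 h, 2 at 12 h, 9 at 24 h, 14 at 48 h and 12 at any time unnormalised, and 1, 1, 7 and 19 (13 higher, 6 lower) at 6, 12, 24 and 48 h centred, against 0, 0, 1, 29 and 28; of all genes, centring called 29.6% higher and 32.2% lower at 24 h in SHEP-21N and 30.6% and 21.9% at 48 h in BE(2)-C cells. With 1 FPKM added, weakly expressed genes move less than others when a whole library shifts. Centring then moves them against that shift by construction. Its part in these counts was not tested. With no filter on low values 5 members were called at 6 h and 1 at 8 h in SHEP-21N and 0 at 24 h in BE(2)-C cells. With only the groups compared in the fit 6, 5 and 8 were called at 8, 16 and 24 h in SHEP-21N cells. Libraries with the same number as a control showed no clear joint deviation with it (r of -0.235 to 0.181 across genes). With so few controls this check cannot exclude that the numbers pair libraries. A fit with the replicate number as a block gave 5 members at 6 h, 6 at 16 h and 11 at 24 h in SHEP-21N cells. In BE(2)-C cells it gave 1 at 24 h and 29 at 48 h. Leaving out 1 library gave 0 to 1 members at 4 h, 0 to 10 at 6 h, 0 to 4 at 8 h, 0 to 11 at 16 h and 6 to 15 at 24 h in SHEP-21N cells, and 0 to 1 at 24 h in BE(2)-C cells; a control group left with 1 library was assumed to vary like the others. The shift of library medians was -0.30 at 24 h in SHEP-21N cells (exact permutation p = 0.3, smallest possible 0.1) and -1.42 at 48 h in BE(2)-C cells (p = 0.1, the smallest possible); it was -0.021 and -0.0093 unnormalised and -0.028 and -0.39 with no filter.

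Some single changes that passed in at least one of the fits turned sign between scales; the cause was not tested. In SHEP-21N cells at 24 h unnormalised values were 0.26 for EFNB1, 0.20 for EFNB2 and 0.21 for EPHB2, and centred ones 0.28 for EFNB1, 0.22 for EFNB2 and 0.22 for EPHB2. In BE(2)-C cells at 48 h unnormalised values were 0.089 for EFNA1, 0.37 for EFNB2, 0.17 for EPHB3, 0.60 for NRP1, 0.012 for NRP2, 0.23 for NTN3, 0.12 for PLXNA1, 0.031 for PLXNA4, 0.46 for PLXNC1, 0.31 for ROBO1, 0.81 for ROBO2, 0.49 for SEMA3A, 0.099 for SEMA4D, 0.21 for SLIT3, 0.19 for UNC5B and 0.25 for UNC5C. Centred ones were 0.84 for EFNA1, 0.15 for EFNA5, 0.41 for EFNB2, 0.023 for EFNB3, 0.66 for EPHA2, 0.35 for EPHB3, 0.42 for NRP1, 0.66 for NRP2, 0.75 for NTN3, 0.41 for PLXNA2, 0.18 for PLXNA3, 0.51 for PLXNA4, 0.34 for PLXNB3, 1.13 for PLXNC1, 0.26 for ROBO1, 1.30 for ROBO2, 1.08 for SEMA3A, 0.11 for SEMA4C, 0.61 for SEMA4D, 0.019 for SEMA6A, 0.060 for SLIT3, 0.055 for UNC5A and 0.089 for UNC5C. Among the single changes reported, none turned sign while called under a pseudocount of 0.1, no filter, the block, only the groups compared or a library left out. Depth is unknown.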
